A study of Drosophila melanogaster with 25 samples.

Results

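DIP-beta dopaminergic neurons were taken as the adult fly brain neurons that carried the dopamine transporter gene DAT, the vesicular monoamine transporter gene Vmat and the cell surface gene DIP-beta, and almost no VGlut, the vesicular glutamate transporter gene. They were chosen by measured values, namely at least 3 DIP-beta UMIs per 10000 UMIs counted in that cell (TP10K), at least 1 DAT UMI, at least 5 Vmat UMIs and at most 1 VGlut UMI. A UMI is a molecular tag that counts each captured transcript once. By this rule 153 of 5184 cells profiled by 10X Chromium were DIP-beta DANs. Since 2196 of the 10X cells passed the DAT and Vmat limits, they made up 7.07% of DANs at ZT14 (63 of 891, exact 95% interval 5.48 to 8.96%) and 6.90% at ZT02 (90 of 1305, 5.58 to 8.41%). They were set against the 1841 DANs with no DIP-beta UMI, of which 742 came from ZT14 and 1099 from ZT02. The remaining DANs were 131 cells with DIP-beta under the minimum and 71 cells at the minimum with more than 1 VGlut UMI.

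The study set out to compare how diverse dopaminergic neurons and clock neurons are in gene expression. Both 10X libraries came from flies that carried TH-GAL4 and Clk856-GAL4 in one stable line, which drove EGFP in many DANs and in clock neurons, with brain cells sorted for EGFP and a DNA dye at ZT14 (1 library, 14 hours after lights on) and at ZT02 (1 library, 2 hours after lights on). In the CEL-seq2 libraries TH-GAL4 alone labelled the DANs, and cells were sorted into plates every 4 hours from ZT02 to ZT22, which gave 3 libraries at ZT10 and 4 at each of the other times. Flies of both sexes were used in equal numbers under light-dark cycles, and TH-GAL4 is a driver that leaves out a large part of the brain's DANs, so only the labelled subset was seen. The same rule applied to CEL-seq2 gave 46 DIP-beta DANs among 1155 DANs, and 682 DANs without DIP-beta.

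DIP-beta encodes a Dpr-interacting protein, a member of a small family of immunoglobulin-domain surface proteins that bind particular partners of the Dpr family on other neurons and take part in the choice of synaptic partners. Dopaminergic neurons make dopamine with the enzymes encoded by ple (tyrosine hydroxylase) and Ddc (dopa decarboxylase), load it into vesicles with Vmat and take it up again with DAT. Serotonergic neurons share Ddc and Vmat but use Trh, the tryptophan hydroxylase, and SerT, the serotonin transporter. Transcription factors with a homeodomain, such as bsh, dve and toy, are used across the fly nervous system to set the identity of neurons.

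DIP-beta lies on the X chromosome (BDGP6, 21422115 to 21457738, minus strand, FBgn0259245). Its level per DIP-beta DAN ran from 3.05 to 41.7 TP10K with a median of 7.1, and over summed cells it was 9.97 TP10K at ZT14 and 9.64 TP10K at ZT02. The cells just inside the minimum had 3.05, 3.06, 3.11, 3.11 and 3.12 TP10K, and those just outside had 2.98, 2.96, 2.94, 2.90 and 2.85 TP10K, so no gap in the values marks the limit. In 11 of the 153 cells the call rested on 1 DIP-beta UMI, while 41 cells held 10 or more. DIP-beta DANs were deeper than the DANs they were compared with, at a median of 9335 against 6460 UMIs per cell, and the part of this difference in the results was not tested beyond the sums of cells with 4000 UMIs or more. The other genes of the rule followed from it and are given as a description. Vmat stood at 272 and 246 TP10K (ZT14 and ZT02) in DIP-beta DANs and at 218 and 215 TP10K in DANs without DIP-beta, DAT at 85.2 and 90.2 against 74.1 and 86.3 TP10K, and VGlut at 0.05 and 0.12 against 2.34 and 3.24 TP10K.

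The dopaminergic part of the label was checked on the markers that had no part in choosing the cells, since DAT and Vmat did. In DIP-beta DANs ple stood at 56.3 TP10K at ZT14 and 51.7 TP10K at ZT02, against 62.9 and 60.6 TP10K in DANs without DIP-beta. Ddc stood at 23.6 and 23.7 TP10K, against 21.7 and 21.6 TP10K, and Pu, the first enzyme of the pathway to the cofactor of tyrosine hydroxylase, at 1.89 and 1.70 TP10K, against 2.07 and 2.02 TP10K. In 10X edgeR and DESeq2 called 0 of these 3 genes, and ple and Ddc had an unadjusted p under 0.05. The 5 clock neuron markers (tim, Clk, vri, cry and Pdf) summed to 0.98 TP10K at ZT14 and 1.63 TP10K at ZT02, against 4.83 and 4.26 TP10K, with tim at 0 at ZT02 and vri at 0 at ZT14. Of these markers tim and Pdf were called lower in DIP-beta DANs and cry, the cryptochrome gene, was called higher, at 0.32 and 0.60 TP10K against 0.09 and 0.26 TP10K (log2 fold change 1.44 ± 0.24, edgeR adjusted p = 0.00043), while in CEL-seq2 no difference in cry was called (edgeR adjusted p = 0.898). Of 6 glial markers, summed 0.37 and 0.33 TP10K against 0.24 and 0.39 TP10K, repo, alrm and Eaat1 were at 0 in both libraries, as were the 3 photoreceptor markers and Gad1, the enzyme that makes GABA. The clock genes per and Pdp1 were not among the 5 clock neuron markers, and their levels were higher than the sum of those markers. In DIP-beta DANs per stood at 10.8 TP10K at ZT14 and 15.5 TP10K at ZT02, against 9.28 and 12.97 TP10K in DANs without DIP-beta. Pdp1 stood at 13.7 and 9.03 TP10K, against 13.84 and 10.23 TP10K. The low sum therefore holds for the 5 markers and not for every clock gene. These checks are of 10X. In the CEL-seq2 DIP-beta DANs the acetylcholine genes ChAT and VAChT summed to 8.74 TP10K, with VAChT at 0, against 6.83 TP10K in DANs without DIP-beta. The GABA genes Gad1 and VGAT summed there to 3.45 TP10K, with neither at 0, against 9.05 TP10K. No cell barcode was shared by the 10X libraries.

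The other genes of the label marked only some of these cells. A Trh UMI was found in 15% of DIP-beta DANs, against 3.80% of DANs without DIP-beta and 3.13% of 10X clock cells, which should lack it and had a median of 9559 UMIs. A bsh UMI was found in 19.6% of DIP-beta DANs, against 6.46% of DANs without DIP-beta and 0.149% of clock cells. For dve these shares were 51.6% in DIP-beta DANs, against 17.7% in DANs without DIP-beta and 6.55% in clock cells, and for DIP-gamma they were 79.7%, against 50.2% and 25.4%. The order was the same with every cell thinned to 2000 UMIs, which left out 14 DIP-beta DANs, 229 DANs without DIP-beta and 22 clock cells. The thinned shares were 9.35%, 2.92% and 1.08% for Trh, 5.04%, 3.35% and 0% for bsh (0 of 650 clock cells allows up to 0.566%), 43.2%, 12.8% and 1.39% for dve, and 46.8%, 28% and 6.92% for DIP-gamma. For bsh the thinned shares had overlapping intervals, 2.05 to 10.1% in DIP-beta DANs and 2.53 to 4.35% in DANs without DIP-beta. Most DIP-beta DANs therefore had neither Trh nor bsh detected, and the cells are called DIP-beta DANs here by the rule that chose them, not by those genes.

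The DIP-beta DANs were not a single kind of cell. Each cell was matched to the 43 cell clusters of the study by correlation with the cluster means, a rebuilt assignment since the files hold no cluster per cell. Of the 153 cells, 46 matched cluster 31, 41 cluster 28, 20 cluster 36, 19 cluster 19 and 17 cluster 4, so that 143 fell in these 5 clusters, 5 in cluster 20 and the rest in others or in none. With all 338 genes in the match, 153 of 153 cells kept their cluster, and with the genes described here held out 148 did. DIP-beta DANs made up 80.4% of the DANs of cluster 28 (41 of 51, exact 95% interval 66.9 to 90.2%), 46.9% of those of cluster 31 (46 of 98), 38.5% of cluster 36 (20 of 52), 16.5% of cluster 19 (19 cells) and 8.10% of cluster 4 (17 of 210). In CEL-seq2, 10 of the 46 cells matched cluster 28, 8 cluster 30, 5 cluster 31, 4 cluster 36, 3 cluster 20 and 1 cluster 4, none matched cluster 19, and 10 matched no cluster.

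**Figure D1:**
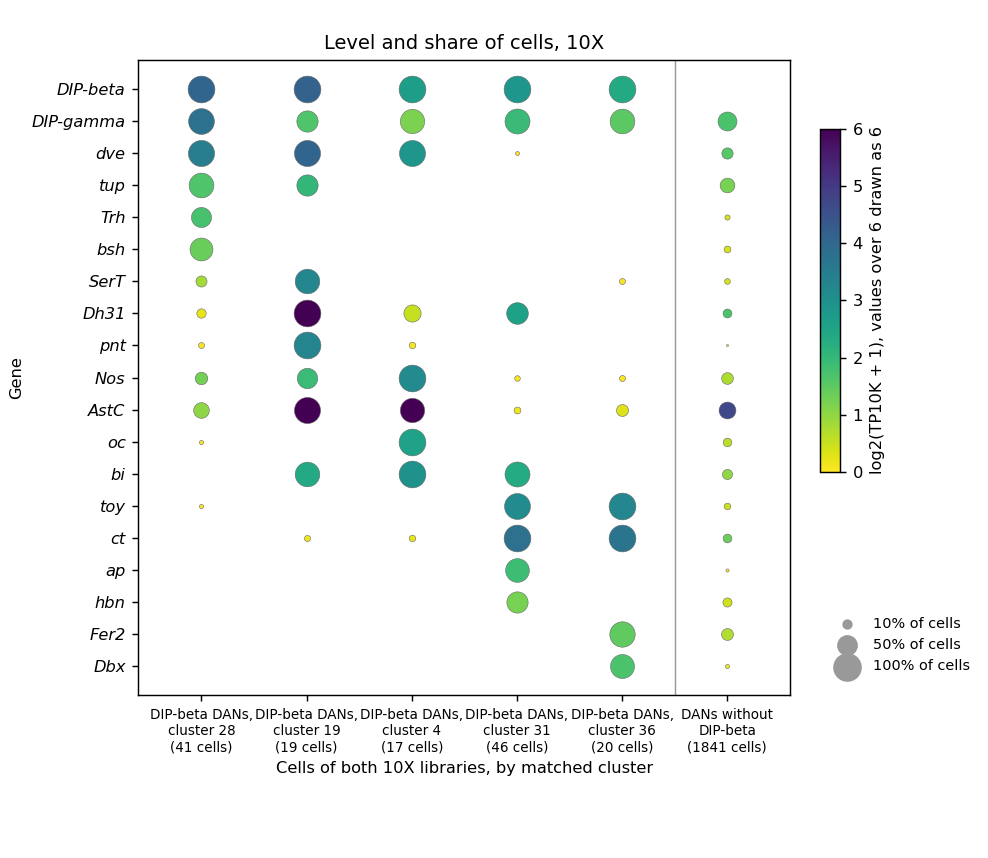
Summed level of selected genes (rows) in the DIP-beta DANs of clusters 28, 19, 4, 31 and 36 and in the 1841 DANs without DIP-beta (columns), 10X. Colour gives log2(TP10K + 1), capped at 6, and dot area the share of cells with a UMI. Trh and bsh are filled in cluster 28 alone among the DIP-beta DANs, dve in clusters 28, 19 and 4, and toy and ct in clusters 31 and 36.

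Transcription factor genes divided these 5 groups of DIP-beta DANs, which is a description because clusters are made from expression. The gene dve, a homeodomain factor first known from gut and eye development, stood at 10.2 TP10K in cluster 28, 15.7 TP10K in cluster 19 and 6.23 TP10K in cluster 4, against 0.03 TP10K in cluster 31 and 0 in cluster 36. The Pax6 gene toy took the opposite place, with 7.79 TP10K in cluster 31 and 8.52 TP10K in cluster 36, against 0.02 TP10K in cluster 28 and 0 in clusters 19 and 4. Single cells followed this split, since 79 DIP-beta DANs had a dve UMI and 64 a toy UMI but only 2 had both, and 12 had neither. The homeodomain gene ct stood with toy, at 12.7 and 12 TP10K in clusters 31 and 36 and in 66 of their 66 cells. In CEL-seq2, 17 of the 46 DIP-beta DANs had a dve UMI, 20 a toy UMI and 3 both.

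Within the cells that carried toy, clusters 31 and 36 used different further factors. In cluster 31 the LIM-homeodomain gene ap stood at 2.72 TP10K and hbn at 1.36 TP10K, and both were at 0 in cluster 36. In cluster 36 Fer2, a bHLH gene known for its role in fly dopaminergic neurons, stood at 1.75 TP10K, Dbx at 2.27 TP10K and zfh1 at 2.27 TP10K, and all were at 0 in cluster 31. No DIP-beta DAN had UMIs of both ap (36 cells) and Fer2 (19 cells). The homeodomain gene pros stood at 29.5 TP10K in cluster 36 and 76.1 TP10K in cluster 19, against 0.03 TP10K in cluster 31, 0.95 TP10K in cluster 28 and 0 in cluster 4. The ETS factor gene pnt, at 8.58 TP10K, marked cluster 19, and the Otx-type homeodomain gene oc, at 4.87 TP10K, marked cluster 4.

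The level of DIP-beta itself and of its relatives also differed among the groups. DIP-beta stood at 16.5 TP10K in cluster 19 and 15.8 TP10K in cluster 28, against 6.24 TP10K in cluster 31, 5.47 TP10K in cluster 4 and 4.10 TP10K in cluster 36. DIP-gamma, another member of the family, was at 12.3 TP10K in cluster 28, against 2.83, 2.14, 1.87 and 1.26 TP10K in clusters 31, 19, 36 and 4. DIP-theta was at 11.7 TP10K in cluster 31, with UMIs in 46 of 46 cells, and at 1.35 TP10K in cluster 28, in 6 of 41 cells, and it had no UMI in the other groups. The cell surface gene side-III, of the sidestep family of beat ligands, was highest in cluster 4 (15.5 TP10K) and lowest in cluster 36 (0.08 TP10K).

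Neuropeptide genes were held by few of the groups. AstC, which encodes allatostatin C, stood at 191 TP10K in cluster 4 and 63.6 TP10K in cluster 19, and at 1.03 TP10K or less in the others. Dh31, a calcitonin-like peptide gene, stood at 74.1 TP10K in cluster 19 and 4.91 TP10K in cluster 31, and at 0.44 TP10K or less elsewhere. The short neuropeptide F gene sNPF was at 3.87 TP10K in cluster 31, from 12 of 46 cells. Nos, the nitric oxide synthase gene, was highest in cluster 4 (7.93 TP10K, 17 of 17 cells), followed by cluster 19 (2.79 TP10K) and cluster 28 (1.41 TP10K). The dopamine genes were held by all groups, with ple between 30.2 TP10K in cluster 19 and 59.7 TP10K in cluster 4, and Dop2R, a dopamine receptor gene, between 113 TP10K in cluster 31 and 191 TP10K in cluster 28.

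Among the DIP-beta DANs of 10X, Trh and bsh were found in cluster 28 and nowhere else, though not in all of its 41 cells. Trh stood there at 2.56 TP10K at ZT14 and 2.21 TP10K at ZT02, and bsh at 1.31 TP10K at ZT14 and 1.73 TP10K at ZT02. All 23 DIP-beta DANs with a Trh UMI and all 30 with a bsh UMI were in this group, and the 30 cells with bsh also had dve. SerT was found in 24 DIP-beta DANs, 23 of them in clusters 19 and 28, and no cell had both Trh and SerT. In CEL-seq2, 9 of the 46 DIP-beta DANs had a Trh UMI, 6 a SerT UMI and 1 both, and 5 of the Trh cells matched cluster 28. A bsh UMI was found in 7 of the 46, of which 5 matched cluster 28.

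Cluster 28 itself held kinds of cells that did not share their transmitter genes. In 23 cells (9 from ZT14 and 14 from ZT02) Trh was present at 1 to 12 UMIs, 3.77 TP10K in sum, and SerT and Dh44 were at 0. DIP-beta stood at 19.6 TP10K and DIP-gamma at 13.5 TP10K in these 23 cells. In 7 further cells (3 from ZT14 and 4 from ZT02) SerT was present at 2 to 12 UMIs, 5.34 TP10K in sum, and Trh and Dh44 were at 0. DIP-beta was at 14.3 TP10K and DIP-gamma at 5.06 TP10K in the SerT cells. In 5 cells, all from ZT02, Nos was present at 4 UMIs or more, 7.1 TP10K in sum, together with 26 to 42 UMIs of Dh44, a corticotropin-releasing-factor-like diuretic hormone gene, and 40 to 67 UMIs of CG7191, and Trh and SerT were at 0. DIP-beta was lower there, at 4.09 TP10K, and DIP-gamma stood at 14.5 TP10K. Of the remaining 6 cells without these genes, 4 had fewer than 4000 UMIs. Median depth was 19589 UMIs in the 5 cells with Dh44, against 12857 UMIs in the 23 cells with Trh and 10636 UMIs in the 7 cells with SerT. The paper reports Dh44 among the labelled DANs in a different cluster. Whether droplets with several cells (doublets) or the rebuilt cluster match played a part in the 5 cells was not tested. The kinds described here were named after their values were seen, and they have no test.

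The Dh44 cells lay close to the DIP-beta limit. Among all 51 DANs of cluster 28, 11 had 4 or more Dh44 UMIs (2 from ZT14 and 9 from ZT02), all 11 had 4 or more CG7191 UMIs, and none had Trh or SerT. Of these 11 cells, 5 were DIP-beta DANs, 4 were the only DANs of the cluster with DIP-beta under the minimum, 1 had no DIP-beta UMI and 1 had more than 1 VGlut UMI. In CEL-seq2 the 10 DIP-beta DANs of cluster 28 divided into 5 with Trh, 3 with SerT and 2 with neither, and none had 4 Nos UMIs.

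**Figure D2:**
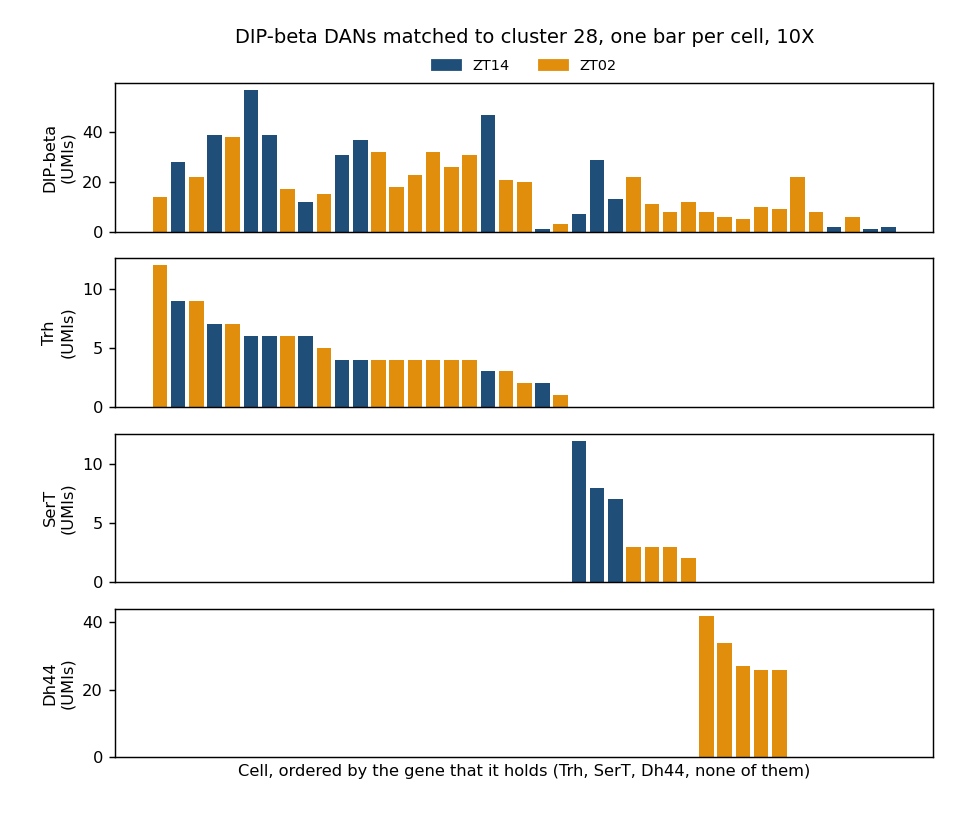
UMIs of DIP-beta, Trh, SerT and Dh44 (y axes, 1 panel each) in each of the 41 DIP-beta DANs of cluster 28 (1 bar per cell along the x axis, blue ZT14, orange ZT02). The 23 cells with Trh, the 7 with SerT and the 5 with Dh44 do not overlap.

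The question of what sets DIP-beta DANs apart from other DANs was addressed by sums of cells in each library, compared within the library. Of 6786 genes tested in 10X, 501 passed edgeR's quasi-likelihood test after Benjamini-Hochberg adjustment and a minimum fold change, which is 7.38% of the genes tested. In DIP-beta DANs 232 genes (3.42%) were higher and 269 (3.96%) lower. In CEL-seq2, with 6 time points as blocks, 122 of 5549 genes (2.2%) were called, 18 higher (0.324%) and 104 lower (1.87%). The median log2 fold change over all genes was -0.01 in 10X and -0.21 in CEL-seq2, and all 122 CEL-seq2 calls stayed past the minimum fold change when set against that shift. Errors given with fold changes are standard errors of these fits, over 4 sums in 10X and 12 in CEL-seq2, and the p-values measure only the spread between these libraries and time points, with 1 residual degree of freedom in 10X and the spread shared across genes. With DESeq2 172 genes were called in 10X and 52 in CEL-seq2, and the CEL-seq2 count was 63, 81 and 73 without ZT06, ZT10 and ZT14.

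Of the 501 genes called in 10X, 407 were tested in CEL-seq2, where 305 had the same sign. The sign was shared by 120 of 192 genes that were higher and by 185 of 215 that were lower. In both methods and in the same direction 50 genes were called, 11 higher and 39 lower, while Fur1, CG15082, bi and Dh31 were called in opposite directions. The DIP-beta DANs of the methods did not match the same clusters. In CEL-seq2 none of the 46 matched cluster 19, 8 matched cluster 30, 1 cluster 4 and 10 no cluster. In 10X 19 of the 153 matched cluster 19, 1 cluster 30, 17 cluster 4 and 1 no cluster. The paper describes cluster 30 as glutamate-expressing, and in 10X 15 of its 16 DANs were over the VGlut limit. The part of these mismatches in the differences between methods was not tested.

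**Figure D3:**
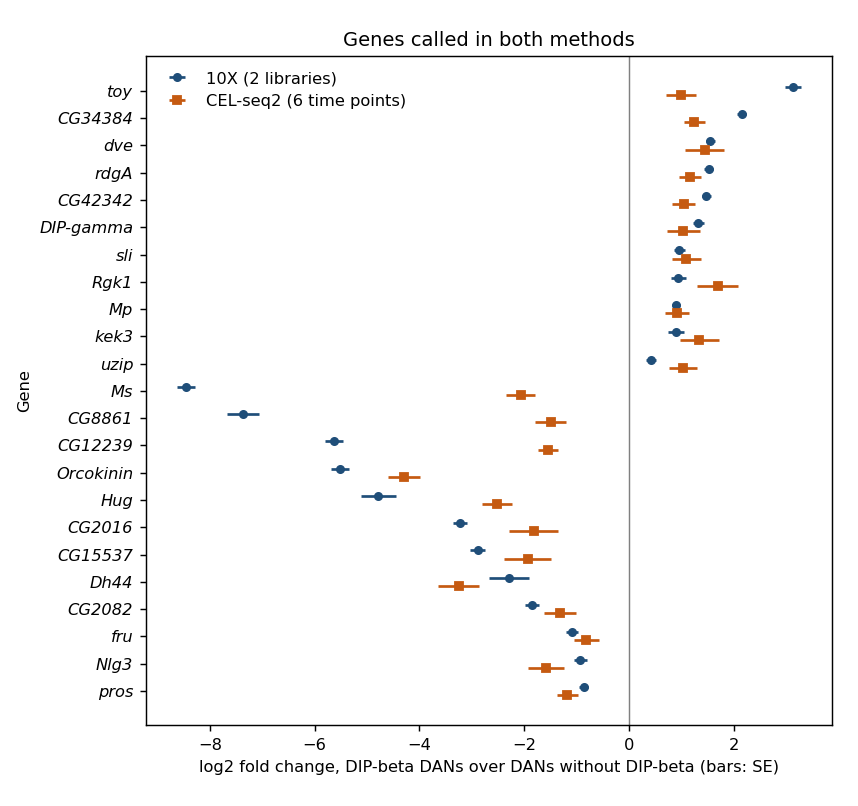
Log2 fold change (x axis, DIP-beta DANs over DANs without DIP-beta) of the 11 named genes higher and 12 named genes lower in DIP-beta DANs in both methods (rows). Bars are approximate standard errors taken from the F statistic, 10X as circles and CEL-seq2 as squares. The 23 genes were chosen as called in the same direction in both methods, so their shared side of 0 follows from that choice. In 10X they run from 3.14 for toy to -8.45 for Ms.

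Among the genes higher in DIP-beta DANs in both methods were the homeodomain genes of the split described above. The gene toy stood at 3.80 TP10K at ZT14 and 3.33 TP10K at ZT02 in DIP-beta DANs, against 0.34 and 0.49 TP10K in DANs without DIP-beta (log2 fold change 3.14 ± 0.15, edgeR adjusted p = 1.5e-10). In CEL-seq2 it was higher by 0.99 (edgeR adjusted p = 0.031), with values over the 6 time points of 0.70 to 6.19 TP10K (median 2.71) against 0.74 to 2.13 TP10K (median 1.20), so these ranges overlapped, and it was higher at 4 of 6 times. The gene dve stood at 5.38 and 5.90 TP10K, against 1.93 and 1.99 TP10K (1.55 ± 0.09, edgeR adjusted p = 9.9e-10), and was 1.44 ± 0.37 higher in CEL-seq2 (edgeR adjusted p = 0.010) and above its comparison at 5 of 6 times. In both genes each 10X library of DIP-beta DANs lay above both libraries of the other DANs.

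Of the DIP family, DIP-gamma was higher in both methods. It stood at 4.60 TP10K at ZT14 and 6.52 TP10K at ZT02 in DIP-beta DANs, against 2.22 and 2.27 TP10K in DANs without DIP-beta (1.33 ± 0.10, edgeR adjusted p = 6.8e-08). In CEL-seq2 its level was 0.58 to 6.56 TP10K over the time points (median 1.82), against 0.77 to 1.27 TP10K (median 0.92), and the difference was 1.04 ± 0.31 (edgeR adjusted p = 0.039). The 10X difference rested on cluster 28, an alternative chosen after seeing the data: without its 41 cells the log2 fold change of DIP-gamma was -0.076 (edgeR adjusted p = 0.846). Its higher level in 10X was thus carried by cluster 28, where it stood at 12.3 TP10K, against 1.26 to 2.83 TP10K in the other 4 clusters.

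Other genes that were higher in both methods encode surface, matrix or signalling proteins. CG34384 stood at 9.81 and 9.49 TP10K at ZT14 and ZT02, against 2.42 and 2.02 TP10K (2.15 ± 0.08), and rdgA, a diacylglycerol kinase gene known from phototransduction, at 9.95 and 7.04 TP10K, against 3.47 and 2.54 TP10K (1.52 ± 0.08). Both were higher in CEL-seq2 as well, by 1.24 ± 0.20 and 1.17 ± 0.22, and rdgA at all 6 time points. Mp, which encodes a collagen of the multiplexin type, stood at 8.87 and 8.69 TP10K, against 4.95 and 4.65 TP10K (0.90 ± 0.08 in 10X and 0.92 ± 0.23 in CEL-seq2). The 10X values of these genes in DIP-beta DANs were all above those in the other DANs.

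The rest of the higher genes depended on cluster 28. With all members the log2 fold change in 10X was 1.48 for CG42342, 0.96 for sli (the Slit ligand of Robo receptors), 0.94 for Rgk1 (an RGK-type small GTPase), 0.90 for kek3 (a leucine-rich repeat surface protein) and 0.42 for uzip (a cell adhesion protein). Without the cluster 28 members it was 0.03, 0.30, 0.23 and 0.10 for the first 4 of these genes, with edgeR adjusted p of 0.934, 0.152, 0.591 and 0.879, and -0.20 for uzip (edgeR adjusted p = 0.487). The calls of kek3 and uzip were also lost with DESeq2, at adjusted p of 0.0681 and 0.528. Still called without cluster 28 were toy (3.74), rdgA (1.46), dve (0.75), CG34384 (0.62) and Mp (0.58).

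**Figure D4:**
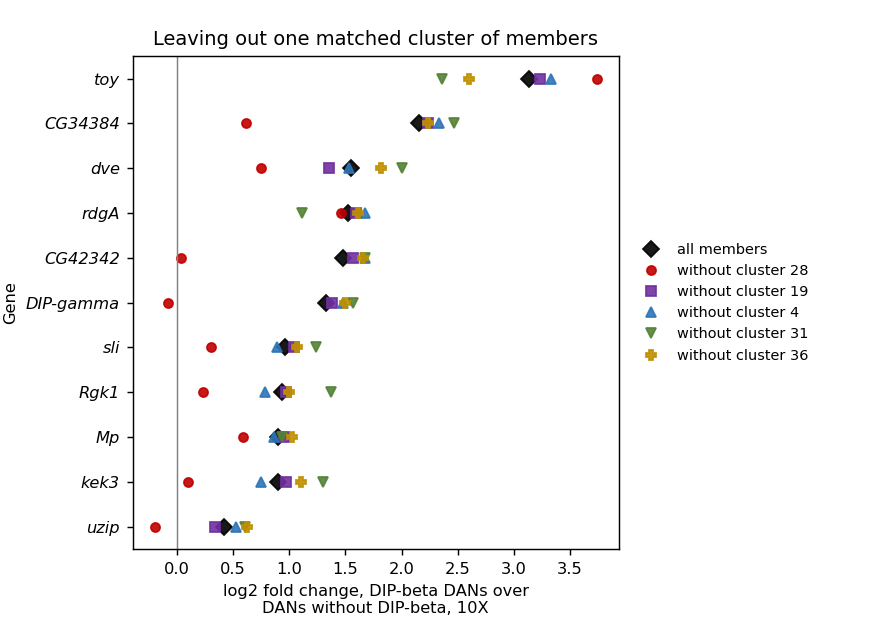
Log2 fold change in 10X (x axis, DIP-beta DANs over DANs without DIP-beta) of the 11 higher genes (rows) with all 153 members and without the members of each of 5 clusters. Without cluster 28, DIP-gamma (-0.076) and uzip (-0.20) fall to the other side of 0, while toy stays at 3.74.

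Of the 12 named genes lower in DIP-beta DANs in both methods, 4 were neuropeptide genes. Ms, the myosuppressin gene, stood at 0.03 TP10K at ZT14 and 0.08 TP10K at ZT02 in DIP-beta DANs, against 19.8 and 20.2 TP10K in DANs without DIP-beta (-8.45 ± 0.17, and -2.07 ± 0.28 in CEL-seq2). Orcokinin stood at 0.15 and 0.15 TP10K, against 4.36 and 9.63 TP10K (-5.52 ± 0.18, and -4.29 ± 0.30 in CEL-seq2). Dh44 stood at 0.05 and 2.01 TP10K, against 5.49 and 4.89 TP10K (-2.29 ± 0.39, and -3.25 ± 0.39 in CEL-seq2), and its ZT02 value came from 7 cells, among them the 5 Dh44 cells of cluster 28. Hug, the hugin gene, stood at 0.11 and 0.26 TP10K, against 0.18 TP10K at ZT14 and 9.91 TP10K at ZT02 (-4.78 ± 0.34), so its difference in 10X came almost wholly from ZT02. The 10X calls of Dh44 and Hug were lost with DESeq2, at adjusted p of 0.643 and 0.969.

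Further genes lower in both methods were fru, which encodes the Fruitless transcription factors of sexual behaviour, Nlg3, a neuroligin gene, and pros. The gene fru stood at 1.52 and 1.52 TP10K at ZT14 and ZT02, against 3.74 and 2.91 TP10K (-1.08 ± 0.11, and -0.81 ± 0.24 in CEL-seq2), and Nlg3 at 2.29 and 1.49 TP10K, against 3.78 and 3.43 TP10K (-0.93 ± 0.12, and -1.58 ± 0.35 in CEL-seq2). For pros the values were 13 and 9.45 TP10K, against 27.9 and 15.1 TP10K (-0.86 ± 0.09, and -1.18 ± 0.20 in CEL-seq2). The pros call was lost without cluster 28 members by the size of the change (-0.32) and in cells with 4000 UMIs or more (-0.41, edgeR adjusted p = 0.321), and within DIP-beta DANs pros ran from 0 to 76.1 TP10K between clusters. The remaining named genes were CG8861, CG12239, CG2016, CG15537 and CG2082, with log2 fold changes in 10X of -7.37, -5.62, -3.22, -2.88 and -1.85.

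Over the whole list of neuropeptide genes, 24 were tested in 10X, of which 2 were higher in DIP-beta DANs and 16 lower, with a median log2 fold change of -2.36 (-2.32 with genes at 0 set to their limits), against -0.01 over all genes. Of all genes tested in 10X, 3.42% were higher and 3.96% lower. The higher ones were Dh31 and sNPF. Dh31 stood at 6.8 and 5.79 TP10K at ZT14 and ZT02, against 2.12 and 2.32 TP10K (1.52 ± 0.10), but in CEL-seq2 it was lower in DIP-beta DANs (-1.79, edgeR adjusted p = 4e-05). In 10X it stood at 74.1 TP10K in cluster 19 and at 4.91 TP10K or less in the other clusters, and no CEL-seq2 DIP-beta DAN matched cluster 19. The call of sNPF (1.18 ± 0.22) was lost with DESeq2 (adjusted p = 0.0619). In CEL-seq2, 10 of 22 neuropeptide genes were called, all lower, among them ITP, the ion transport peptide gene (-2.03, and -1.28 in 10X), and Proc, the proctolin gene (-2.38, and -2.36 in 10X). Of all genes tested in CEL-seq2, 0.324% were higher and 1.87% lower. DESeq2 called 7 neuropeptide genes in 10X and 6 in CEL-seq2. The 10X DANs without DIP-beta were spread over many more matched clusters than the DIP-beta DANs. These counts therefore do not show that DIP-beta DANs hold little neuropeptide RNA, and AstC stood at 191 TP10K in those of cluster 4.

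Members of the surface protein families that bind in pairs differed in both directions. Of 7 DIP genes tested in 10X, DIP-gamma and DIP-theta (2.12 ± 0.10) were higher, and DIP-kappa (-2.48 ± 0.15), DIP-alpha (-2.16 ± 0.39) and DIP-delta (-1.20 ± 0.13) were lower. The call of DIP-alpha was lost with DESeq2 (adjusted p = 0.185). Of 21 dpr genes, whose products are the partners of DIPs, 1 was higher (dpr15) and 6 were lower (dpr2, dpr3, dpr6, dpr11, dpr16 and dpr17), with a median of -0.20, where 3.42% of all genes were higher and 3.96% lower. DESeq2 called 1 of the 21 in 10X. In CEL-seq2 edgeR and DESeq2 called 0 of the 21 dpr genes, with 1 at an unadjusted p under 0.05 (dpr17), and the median was -0.18, against -0.21 over all genes. Of 21 genes of the beat and side families, whose products also bind one another, 9 were higher and 3 lower in 10X, with a median of 0.24, and in CEL-seq2 the single gene called of 14 was beat-IIIb, which was lower. Over all genes in CEL-seq2, 0.324% were higher and 1.87% lower.

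Receptor genes were called in both directions in 10X, where 3.42% of all genes were higher and 3.96% lower. Of 30 neuropeptide receptor genes, 9 were higher and 3 lower (median 0.30), of 7 octopamine and tyramine receptor genes 3 were higher and 1 lower, and of 9 glutamate receptor genes the 3 called were all higher. Of 6 GABA receptor genes 2 were higher, and of 2 muscarinic acetylcholine receptor genes mAChR-A was higher and mAChR-B lower. The single gene called was lower among 4 dopamine receptor genes (Dop1R2) and among 9 nicotinic acetylcholine receptor genes (nAChRalpha3). Octbeta2R, an octopamine receptor gene, stood at 6.11 and 6.02 TP10K at ZT14 and ZT02, against 3.0 and 2.28 TP10K (1.24 ± 0.09). Of 5 serotonin receptor genes, the 3 called were all lower, among them 5-HT2A at 0.12 and 0.17 TP10K, against 0.94 and 0.72 TP10K (-2.46 ± 0.25). In CEL-seq2 the single gene called among 23 neuropeptide receptor genes was SIFaR and among 9 nicotinic receptor genes nAChRalpha3, both of which were lower. There 1.87% of all genes were lower. In the other receptor lists edgeR and DESeq2 called 0 of 28 genes in CEL-seq2, with 9 at an unadjusted p under 0.05. With DESeq2 the 10X calls were 4 neuropeptide receptor genes and 2 each of the glutamate, GABA and muscarinic receptor genes. DESeq2 also called 1 each of the octopamine and tyramine, serotonin, dopamine and nicotinic receptor genes.

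The genes of transmitter synthesis showed a level of dopamine enzymes near that of other DANs. In 10X, with the levels given above, the log2 fold change of ple was -0.17 ± 0.07 (edgeR adjusted p = 0.189) and that of Ddc 0.16 ± 0.07 (edgeR adjusted p = 0.252). In CEL-seq2 Ddc was higher by 0.62 (edgeR adjusted p = 0.026). Trh was higher in 10X, at 0.72 and 0.88 TP10K against 0.28 and 0.30 TP10K (1.5 ± 0.17, edgeR adjusted p = 5.6e-06), and SerT at 1.12 and 0.58 TP10K against 0.29 and 0.29 TP10K (1.54 ± 0.21). In CEL-seq2 their differences were 0.68 and 0.34, with edgeR adjusted p of 0.484 and 0.90. For bsh the 10X values were 0.37 and 0.69 TP10K against 0.26 and 0.31 TP10K (0.94 ± 0.20, edgeR adjusted p = 0.0051), a call that was lost with DESeq2 (adjusted p = 0.66). The octopamine enzyme genes Tdc2 and Tbh were lower in 10X (-2.99 ± 0.32 and -3.41 ± 0.30), and Tbh in CEL-seq2 too (-1.13, edgeR adjusted p = 0.039).

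Of 34 homeodomain genes tested in 10X, 6 were higher and 14 lower, with a median of -0.64, where 3.42% of all genes were higher and 3.96% lower. In CEL-seq2, 3 of 33 were higher (dve, toy and CG32532) and 3 lower (Dll, otp and pros), with a median of -0.56 against -0.21 over all genes. There 0.324% of all genes were higher and 1.87% lower. DESeq2 called 10 homeodomain genes in 10X and 3 in CEL-seq2. The higher ones in 10X were bsh, dve, toy, ct (1.86 ± 0.10), ap (4.37 ± 0.31) and Dbx (2.37 ± 0.28). Optix and Dll, homeodomain genes of eye and limb development, had no UMI in the 153 DIP-beta DANs, against 1.39 and 0.99 TP10K in the other DANs, so they were at least 66.4-fold and 47.2-fold lower with a limit of 3 UMIs over the group. SoxN, an HMG-box factor gene, stood at 0.05 and 0.04 TP10K, against 1.52 and 1.45 TP10K (-5.10 ± 0.28, and -3.0 in CEL-seq2).

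Since bsh is a gene of the label, the 30 DIP-beta DANs with a bsh UMI (10 from ZT14 and 20 from ZT02) were compared with the 119 DANs that had bsh but no DIP-beta (47 and 72). All 30 matched cluster 28, whereas the 119 matched clusters 27 (43 cells), 21 (40 cells), 20 (34 cells) or none (2 cells). The comparison is therefore also one between clusters, and DIP-beta and cluster cannot be told apart in it. Of 4282 genes tested 318 were called (7.43%), 169 higher (3.95%) and 149 lower (3.48%) in the DIP-beta cells, and with DESeq2 90 were called. Trh stood at 3.02 TP10K at ZT14 and 2.36 TP10K at ZT02 in the bsh cells with DIP-beta, against 0 and 0.09 TP10K in the bsh cells without it (106 against 7 UMIs, 5.59 ± 0.47, edgeR adjusted p = 2e-06, DESeq2 adjusted p = 0.0611). DIP-gamma stood at 12.7 and 13.3 TP10K, against 3.19 and 3.82 TP10K (1.91 ± 0.13), and dve at 10.1 and 10.3 TP10K, against 9.61 and 7.56 TP10K (0.29 ± 0.12, edgeR adjusted p = 0.25). Among cells that all had bsh, edgeR thus called Trh and DIP-gamma, though the Trh call was lost with DESeq2. It did not call dve, although both values of dve with DIP-beta lay above both values without it.

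Other genes higher in the bsh cells with DIP-beta were Ca-alpha1T, a T-type calcium channel gene, at 11.8 and 6.67 TP10K against 0.58 and 0.51 TP10K (4.05 ± 0.19), Pvf3, a gene for a PDGF- and VEGF-related ligand, at 7.13 and 7.51 TP10K against 0.44 and 0.81 TP10K (3.54 ± 0.20), the zinc finger gene zld (4.99 ± 0.43) and the octopamine receptor gene Octbeta3R (3.65 ± 0.37). CG15082, CG12541, CG43795, CG17193, CG12836 and Lgr1 were higher by 3.58 to 4.70, and CG13203, with no UMI in the bsh cells without DIP-beta, was at least 72.5-fold higher. Genes with no UMI in the bsh cells with DIP-beta included the transcription factor genes lov, zfh1 and Kr, at least 41.6-fold, 39.9-fold and 19-fold lower, the tachykinin receptor gene TkR99D and ct, at least 17.9-fold and 16.4-fold lower, CG32700, at least 84.0-fold lower, and Sulf1 and Scp2, at least 15.9-fold and 14.3-fold lower. Ac13E, Dscam3, zfh2 and Octalpha2R were lower by log2 fold changes of -5.29, -5.21, -5.0 and -4.74. With DESeq2 the adjusted p of CG13203, CG15082, Lgr1, CG32700, lov, zfh1, Kr, TkR99D, ct, Dscam3 and zfh2 was over 0.05. Of 20 dpr genes, 2 were higher and 8 lower among these cells, where 3.95% of all genes were higher and 3.48% lower. Among the lower ones was dpr3, at 0.06 and 0.36 TP10K against 2.59 and 2.45 TP10K (-3.33 ± 0.38).

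DIP-beta DANs and DANs without DIP-beta were also compared within the matched clusters that held 5 cells or more of both kinds in each library, a comparison chosen after seeing the data. In cluster 4, 233 of 4533 genes (5.14%) were called between 17 DIP-beta DANs and 181 DANs without DIP-beta, 114 higher (2.51%) and 119 lower (2.63%). Nos stood at 7.95 TP10K at ZT14 and 7.91 TP10K at ZT02, against 0.48 and 0.45 TP10K (4.11 ± 0.24), and AstC at 184 and 195 TP10K, against 25.9 and 16.8 TP10K (3.21 ± 0.15). Cell by cell, 17 of 17 DIP-beta DANs had 2 or more Nos UMIs, against 10 of 181 of the others, and 13 of 17 had 40 or more AstC UMIs, against 20 of 181. The paper places Nos in other DAN clusters, so the 17 cells may not belong to the same cluster as the 181, which was not tested. Also higher were side-III (1.97 ± 0.17), lov (2.24 ± 0.25), dve (1.61 ± 0.22), Nplp1, a neuropeptide-like precursor gene (1.58 ± 0.20), and Gycbeta100B, a subunit of the guanylate cyclase that nitric oxide activates (1.56 ± 0.24). The largest fold changes past the level minimum were those of Tsp42En (4.90), Nos, CG16758 (3.78), AstC, Pxn (3.04), trn (2.67), CG2772 (2.56) and CG3655 (2.28), of which trn was lost with DESeq2 (adjusted p = 0.0875).

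Genes that were lower in the DIP-beta DANs of cluster 4 included Dh31, at 0.15 and 0.61 TP10K against 13.1 and 5.90 TP10K (-4.25 ± 0.34), and DIP-gamma, at 0.74 and 1.57 TP10K against 3.96 and 3.23 TP10K (-1.47 ± 0.30, DESeq2 adjusted p = 0.189). The gene CG4577 had 1 UMI in the 17 cells, against 2267 UMIs in the 181 (-7.82 ± 0.47). At 0 UMIs in the 17 cells were wry, CG45263, the dopamine receptor gene Dop1R1, DIP-lambda, svp, pros and CG13056, at least 23.5-fold, 9.96-fold, 7.85-fold, 7.55-fold, 7.15-fold, 6.35-fold and 6.17-fold lower, and none of these 7 was called by DESeq2. The direction of DIP-gamma in cluster 4 was thus opposite to that over all DIP-beta DANs.

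In cluster 19 the DIP-beta DANs stood apart by Dh31, and none of them held Trh. Of 2536 genes tested, 225 (8.87%) were called between 19 DIP-beta DANs and 62 DANs without DIP-beta, 109 higher (4.3%) and 116 lower (4.57%), with 42 called by DESeq2 and 135 by edgeR in cells with 4000 UMIs or more. Dh31 stood at 69.3 TP10K at ZT14 and 79.0 TP10K at ZT02, against 0.11 and 0.18 TP10K (8.92 ± 0.28), and pros at 68.7 and 83.8 TP10K, against 10.3 and 14.7 TP10K (2.65 ± 0.17). Trh had no UMI in the 19 cells and 3.96 and 3.63 TP10K in the 62, at least 11.8-fold lower, whereas SerT was higher, at 9.51 and 7.4 TP10K against 4.92 and 4.92 TP10K (0.80 ± 0.23, DESeq2 adjusted p = 0.933). Cell by cell, 18 of 19 DIP-beta DANs had 5 or more Dh31 UMIs and 0 had Trh, against 0 and 40 of 62 DANs without DIP-beta. The 62 cells were mixed, since 20 of them had 40 or more AstC UMIs and only 1 of these 20 had Trh. Lack of Trh was thus not particular to the DIP-beta DANs of this cluster.

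Further differences in cluster 19 lay in transmitter and receptor genes. ChAT, which makes acetylcholine, stood at 1.90 and 1.52 TP10K in DIP-beta DANs, against 0 and 0.09 TP10K (4.95 ± 0.89), and VAChT, its vesicular transporter, at 1.69 and 1.52 TP10K, against 0.04 and 0.12 TP10K (4.20 ± 0.84). Ddc was higher (0.59 ± 0.16, DESeq2 adjusted p = 0.476) and ple lower (-0.52 ± 0.17, DESeq2 adjusted p = 0.84). The gene pnt had no UMI in the 62 cells and was at least 170-fold higher, CG42339, CG9541 and CG9109 were at least 42.5-fold, 38.3-fold and 31.9-fold higher, and Grd, a GABA receptor-related gene, robo3 and Octalpha2R were higher by 6.91 ± 0.85, 6.15 ± 1.06 and 6.15 ± 0.80. At 0 UMIs in the 19 cells were Pde9, Sema2b, DIP-theta, CG2082, the serotonin receptor gene 5-HT2B, pxb and olf413, at least 26.5-fold, 14.6-fold, 12.7-fold, 9.66-fold, 8.67-fold, 7.68-fold and 6.32-fold lower. The calls of pnt, CG42339, CG9109, Pde9, 5-HT2B, pxb and olf413 were lost with DESeq2.

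Cells of cluster 19 that met the DIP-beta minimum but had more than 1 VGlut UMI resembled the DIP-beta DANs in these genes. In the 29 such cells Dh31 was at 73.3 TP10K, pnt at 9.81 TP10K, pros at 95.2 TP10K, SerT at 7.24 TP10K and VAChT at 1.77 TP10K, and Trh was at 0. The 19 DIP-beta DANs had 74.1, 8.58, 76.1, 8.47 and 1.61 TP10K of these genes and no Trh, and the 62 cells without DIP-beta had 0.15, 0, 12.7, 4.92 and 0.08 TP10K and 3.78 TP10K of Trh. VGlut itself was at 0.64 TP10K in the DIP-beta DANs, 6.36 TP10K in the 29 cells and 8.52 TP10K in the 62 cells. The limit on VGlut therefore divided the Dh31 cells of cluster 19, with 5 or more Dh31 UMIs in 18 of 19 cells at or under it and in 29 of 29 over it. Median depth was 5435 UMIs in the DIP-beta DANs, 7172 in the 29 cells and 10017 in the 62 cells.

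**Figure D5:**
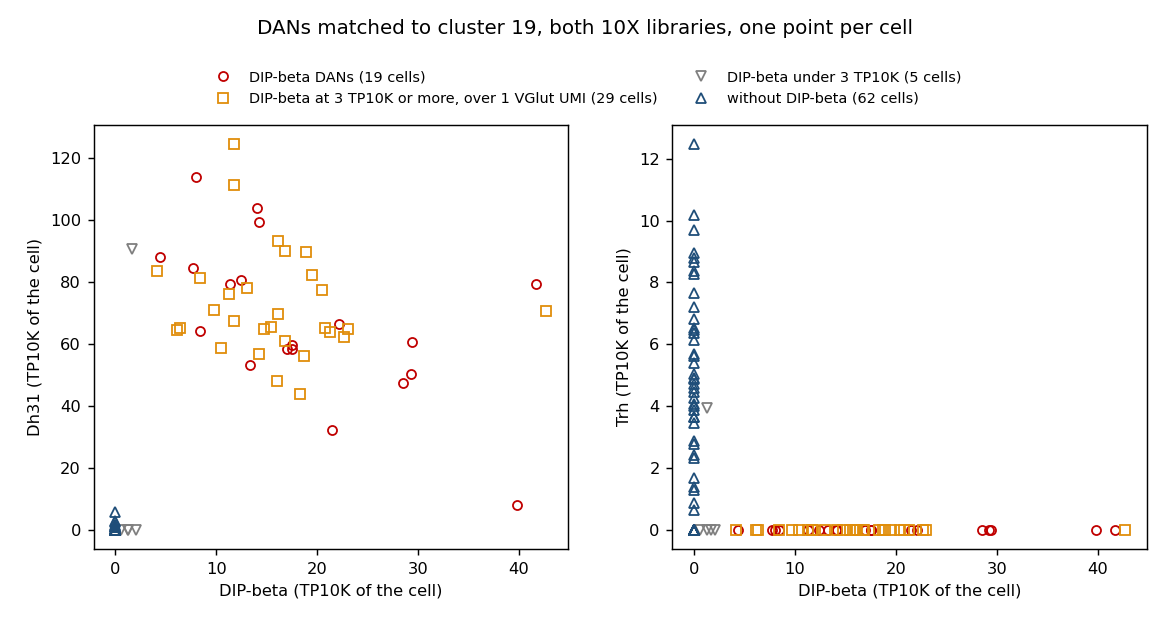
DIP-beta (x axes, TP10K) against Dh31 (left) and Trh (right, y axes, TP10K) in each DAN of cluster 19, 10X. The 19 DIP-beta DANs and the 29 cells over 1 VGlut UMI share high Dh31 and no Trh, whereas the 62 cells without DIP-beta lie near 0 for Dh31 and 40 of them have Trh.

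In cluster 31 few genes were called between the 46 DIP-beta DANs and the 21 DANs without DIP-beta. By edgeR 1 gene of 2374 (0.0421%) was called, pros, at 0.05 TP10K at ZT14 and 0 at ZT02 in DIP-beta DANs, against 23.9 and 17.6 TP10K (-9.16 ± 0.41, edgeR adjusted p = 0.016), from 1 against 330 UMIs. No gene was called higher, 144 had an unadjusted p under 0.05 in either direction, and DESeq2 called 2, both lower. The log2 fold changes of toy, ct, ap and DIP-gamma were -0.033, 0.22, 0.25 and 0.15, with edgeR adjusted p of 0.993, 0.929, 0.932 and 0.976. The gene sNPF stood at 2.49 and 5.21 TP10K, against 22.3 and 17.1 TP10K (-2.36 ± 0.38, edgeR adjusted p = 0.42, DESeq2 adjusted p = 0.0013). The count of calls was sensitive to the genes of the match, with 97 genes called when the genes described here were held out of it.

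The last question was how DIP-beta DANs changed between ZT14 and ZT02. With 1 library at each time there is no test, and ratios carry exact 95% Poisson intervals that cover counting error only. Of 4473 genes with 30 UMIs or more, 126 (2.82%) were past 2-fold with an interval that left out 1, 56 higher and 70 lower at ZT14. The largest ratios were those of the mitochondrial genes mt:ND3 (49 UMIs at ZT14 and 8 at ZT02, ratio 7.36, 3.46 to 18), mt:ND6 (6.47) and mt:ND1 (5.22), and of otk (4.81), Hsp70Bc, a heat shock gene whose near-identical copies could share its reads (4.60), CG17724 (3.30), caz, an RNA-binding protein gene (3.23), and CG11975 (3.20). In DANs without DIP-beta the ratios of mt:ND3, mt:ND6, mt:ND1 and Hsp70Bc were 8.24, 6.27, 6.18 and 3.65, so these genes differed between the libraries in both kinds of cell, while that of otk was 1.15.

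At the other end, CG7191 had 0 UMIs at ZT14 and 299 at ZT02, in 8 cells, and Dh44 had 3 UMIs at ZT14 and 157 at ZT02, in 7 cells. Most of these UMIs lay in the 5 Dh44 cells of cluster 28 (292 of CG7191 and 155 of Dh44), all of which came from the ZT02 library. Pka-C3, with 4 and 34 UMIs, lay in 1 and 6 cells. Among genes spread over more cells, Mgat1 (ratio 0.23, 0.09 to 0.52) and CG17778 (0.27, 0.14 to 0.48) were lower at ZT14, with ratios of 0.93 and 0.59 in DANs without DIP-beta. Arc1, an activity-regulated gene, lay in few cells, 3 at ZT14 and 8 at ZT02. Of its 27 UMIs at ZT02, 10 were in the top cell and 9 in the next. Its ratio was 0.18 in DIP-beta DANs and 0.22 in the others. CG11110 and CG31817 had ratios of 0.28 and 0.29 in DIP-beta DANs. Of the 16 genes named here, 5 had the same direction in CEL-seq2, 7 had no UMI there at either time. Only 2 CEL-seq2 libraries at ZT14 and 2 at ZT02 held DIP-beta DANs, so that an exact two-sided permutation test could not give a p under 0.333 and no gene could be tested there.

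The clock genes stood at very different levels in DIP-beta DANs. There tim had 3 UMIs at ZT14 and 0 at ZT02, vri 0 and 1, and Clk 4 and 1. The gene cry had 21 UMIs at ZT14 and 47 at ZT02 (ratio 0.54, 0.30 to 0.92), against a ratio of 0.34 in DANs without DIP-beta, and cwo 84 and 77 UMIs (1.31, 0.95 to 1.81), against 0.95. The clock gene per stood at 10.8 TP10K at ZT14 and 15.5 TP10K at ZT02 (ratio 0.69, 0.63 to 0.76), against 0.72 in DANs without DIP-beta, and Pdp1 at 13.7 and 9.03 TP10K (1.51, 1.37 to 1.67), against 1.35. The activity-linked genes sr and Hr38 had ratios of 0.46 and 0.63 in DIP-beta DANs and 0.47 and 0.57 in the others. For ple the ratio was 1.09 (1.04 to 1.14), for Trh 0.82 (0.55 to 1.20), for DIP-gamma 0.71 (0.61 to 0.82) and for Nos 0.43 (0.32 to 0.57). With equal weight given to the 5 clusters, chosen after seeing the data, the ratios of DIP-gamma and Nos were 0.87 and 0.76, closer to 1.

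The share of DANs that were DIP-beta DANs could be tested in CEL-seq2, where it was 3.21 ± 4.72% at ZT14 and 1.63 ± 2.2% at ZT02 (mean ± SD, n = 4 libraries each). The difference of 1.58 percentage points was smaller than the spread between libraries (exact permutation test, two-sided, p = 0.714, with 0.0286 the smallest p this design allows). Over the other times the mean share was 5.15 ± 4.58% at ZT06 (n = 4), 7.02 ± 3.65% at ZT10 (n = 3), 3.40 ± 2.74% at ZT18 (n = 4) and 4.75 ± 2.37% at ZT22 (n = 4). The counts behind these shares were 3 cells at ZT02, 11 at ZT06, 11 at ZT10, 4 at ZT14, 9 at ZT18 and 8 at ZT22. The titles of the CEL-seq2 libraries carry a shared date for ZT02 and ZT14, another for ZT10 and ZT18, and another for ZT06 and ZT22. Between times of different dates, time of day and date therefore cannot be told apart. Without ZT14 replicate 5, which held 3 of the 4 cells of its time, the difference between ZT14 and ZT02 was -0.682 percentage points.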

How the data were processed

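The authors mapped reads to dm6, counted UMIs on annotated exons with zUMIs (CEL-seq2) or Cell Ranger (10X), and removed cells outside limits on genes, UMIs and expression entropy, and doublets called by Scrublet in the 10X data, before deposit. The submitters' processing notes name Cell Ranger 6.0.2 and bcl2fastq 2.20. The deposited values are UMI counts per gene and cell, whole numbers without normalization. All cells of the 25 libraries were used as deposited (6700 cells), with no further doublet caller; 2325 columns of cells from no sample of the series and 91 spike-in rows were left out. The 10X libraries held 21264133 UMIs at ZT14 (2296 cells, median 8493) and 19834146 at ZT02 (2888 cells, median 6180.5), and the CEL-seq2 libraries 548486 to 1197517 UMIs.

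Levels are TP10K, a gene's UMIs scaled to 10000 UMIs in all for the cell or sum. Because cluster labels are not in the files, cells were assigned to the 43 published cluster means of the study by Pearson correlation over 319 genes (35 genes held out, r of at least 0.5, lead of at least 0.01 over the next cluster). Cells are not replicates. UMI counts were summed per group and library (10X, 4 sums, library as block) or per group and time point (CEL-seq2, 12 sums of at least 3 cells, time point as block, because libraries of a time may share a plate) and tested with edgeR 4.0.16 (TMM, filterByExpr, glmQLFit, glmQLFTest) in R 4.3.3. The p-values of this test were adjusted by the Benjamini-Hochberg method over all genes tested. A call needed an adjusted p below 0.05 and a change of 1.25-fold or more. DIP-beta, DAT, Vmat and VGlut (and bsh among bsh cells) were left out of the counts of calls. DESeq2 1.42.0, no filter, other limits on DIP-beta, VGlut, bsh and depth, and leaving out each library or time point were the alternatives. Shares carry exact Clopper-Pearson intervals and ratios exact Poisson intervals, both at 95% and for counting error only; a group at 0 was given a limit of 3 UMIs over the group. The other steps used pandas 2.3.3, numpy 2.4.6, matplotlib 3.10.9 and scipy 1.17.1 under Python 3.11.15.

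Named genes were the 12 in each direction with the largest change among those called in both methods with 1 TP10K or more in the higher group (10X alone where CEL-seq2 could not be fitted, 8 within matched clusters), and for time of day the 8 in each direction with the largest ratio; 11 genes met the rule for higher genes. The members, rules and gene lists were chosen with earlier results of these data known. Coordinates are from the BDGP6 annotation. On simulated counts with 50 genes per fold among 6790 in the 10X design, edgeR called 49 at 4-fold, 41 at 2-fold, 34 at 0.5-fold and 39 at 0.25-fold, with 9 unchanged genes called; in the CEL-seq2 design (5553 genes) these numbers were 43, 7, 10, 27 and 4.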

Additional observations from a re-analysis of the deposited data

Results flagged for a closer look

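Groups of 4 to 10 values were checked for a single value that stood far from the others. Of 51 such groups 3 had one, and chance alone gives about 1 in 20. The share of DANs that were DIP-beta DANs was 12% in the CEL-seq2 library of ZT06 replicate 5 (6 of 50 cells), far above the other ZT06 libraries, which lay between 2.38 and 3.17%. Over the 6 CEL-seq2 time points, Orcokinin in DIP-beta DANs had a highest value of 3.47 TP10K against a median of 0.11 TP10K, and Hug a highest value of 17.6 TP10K against a median of 0.25 TP10K. Both genes were lower in DIP-beta DANs in the comparison of each method.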

How the results depend on the processing

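The counts of called genes moved with the test and with the cells compared, and the cause was not tested. With DESeq2, 172 genes (98 higher, 74 lower) were called between DIP-beta DANs and DANs without DIP-beta in 10X, 52 (22 and 30) in CEL-seq2, 90 (50 and 40) among bsh cells, 59 (43 and 16) within cluster 4, 42 (32 and 10) within cluster 19 and 2 within cluster 31. Without the filter on low counts the 10X count was 572 (220 higher, 352 lower) and that of cluster 31 was 70, while cluster 19 had 188 (65 and 123). In CEL-seq2, 57 genes were called against DANs with at most 1 VGlut UMI, 340 (7 higher, 333 lower) with sums per library, and 63 to 108 with a time point left out (63 without ZT06, 73 without ZT14 and 81 without ZT10). Within cluster 19, 135 were called in cells with 4000 UMIs or more, and within cluster 31, 97 with the listed genes held out of the match. Past 2-fold between times were 46 genes at a minimum of 60 UMIs. In 10X the other settings gave 411 to 593 calls. Without the members of cluster 28 the log2 fold changes of DIP-gamma (-0.076) and uzip (-0.20) turned round. That of CG13056 within cluster 4 ran from -1.98 without ZT02 to 0.22 without ZT14. The difference in the CEL-seq2 share ran from -0.682 (without ZT14 replicate 5) to 2.65 percentage points with a library left out. Of the checks of named genes, 491 kept direction and threshold, 38 lost the threshold and 85 moved by more than their error. No paired analysis was possible because the CEL-seq2 libraries of ZT14 and ZT02 share no replicate number and the 10X libraries share only 1, with 1 library a time, and DIP-beta DANs and other DANs were compared within each library or time point. The comparison of bsh cells in CEL-seq2 was not run, as only ZT06 had 3 cells of both kinds. With 1 10X library a time, no difference between times carries a test, and 10X p-values rest on 4 sums.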
